A study of Homo sapiens with 8 samples.

Results

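Homologous recombination and checkpoint genes are the 35 genes treated here, picked by gene name from the 58870 rows of the deposited table. They comprise 5 genes of the BRCA1 and BRCA2 complexes, 5 genes of the strand invasion step, 9 genes of the Fanconi core and its ubiquitination step, the 2 subunits of the Fanconi ID complex, 6 helicase, polymerase, nuclease and fork genes, the mismatch repair gene MSH6, and 7 checkpoint kinases and break sensors. All 35 passed the filter on low values that left 16542 genes for testing, with 18 to 3499 reads per gene and library. RNA was measured in 8 libraries of BJ-HRAS cells, a derivative of the BJ skin fibroblast line. There were 4 groups of 2 clones: SNORA13 knockout (KO) clones 66 and 69 after 7 days with (Z)-4-hydroxytamoxifen (4-OHT, 100 nM), wild-type (WT) clones 15 and 54 after the same treatment, and the same KO and WT clones sampled without 4-OHT. SNORA13 is a small nucleolar RNA of the H/ACA class, and the series concerns a snoRNA in ribosome biogenesis and senescence. Each group holds 2 clones said to be independent, so each p-value is judged against clone-to-clone spread. A difference of KO from WT also holds anything else by which these 4 clones differ. No days of culture were listed for the libraries without 4-OHT, so a 4-OHT response also holds any difference in culture time. All groups carry the BJ-HRAS background. In fibroblasts of this kind 4-OHT is used to switch on a receptor-fused RAS, but the labels do not name the construct.

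Homologous recombination repairs a double-strand break by copying the sister chromatid. BRCA1 and its partners prepare the break, BRCA2 helps to build a protein filament on the single strand, and further proteins help that filament to invade the sister. The Fanconi pathway unhooks crosslinks between DNA strands by attaching ubiquitin to FANCD2 and FANCI, and then hands the broken fork to recombination. ATM and ATR are the kinases that sense breaks and stalled forks and signal through CHEK2 and CHEK1. Many genes of these pathways are transcribed mainly in late G1 and S phase, through E2F factors, so that dividing fibroblasts hold more of their messages than resting or senescent ones.

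Library totals were 22.1 to 24.9 M reads. SNORA13 held 0 reads in all 4 KO libraries, each of which allows up to 3 reads by counting error alone, against 5 and 7 reads in WT with 4-OHT and 6 and 4 reads in WT without it. Fibroblast markers were read in all libraries (13 of 13), with a summed level of 3427 to 3809 RPKM in KO and 3408 to 3803 RPKM in WT with 4-OHT, against 5007 to 5203 RPKM in KO and 5521 to 5717 RPKM in WT without it. Of the 13, 3 rose and 9 fell with 4-OHT in KO, and 2 rose and 9 fell in WT. Single markers fell far more than the sum. DCN fell 62.3-fold in KO and 59.2-fold in WT, FAP 18.0-fold in KO and 17-fold in WT, and LUM 36.5-fold in KO. In WT clones 15 and 54 LUM was at 18.4 and 12.4 RPKM with 4-OHT, against 474 and 285 RPKM without it. Of the other cell type lists, 3 of 9 epithelial, 3 of 7 endothelial, 3 of 8 immune and 3 of 8 melanocyte or neural markers passed the filter. Epithelial KRT5 and KRT14 and immune CD68 were at 0 reads in all 8 libraries, and endothelial CDH5 and KDR held at most 2 and 1. Other listed markers were read: KRT18 at 258 to 779 RPKM, KRT8 at 4.67 to 20.0 RPKM, CD14 at 7.23 to 13.7 RPKM, PTPRC at 0.277 to 2.71 RPKM and MITF at 3.58 to 17.5 RPKM. The summed epithelial list was at 265 to 275 RPKM in KO and 281 to 294 RPKM in WT with 4-OHT, against 488 to 544 RPKM in KO and 775 to 799 RPKM in WT without it. KRT18 fell with 4-OHT in KO (log2 −0.92) and in WT (−1.44), and MITF fell in KO (−1.75) and was lower in KO than in WT with 4-OHT (−1.53). The part of these markers in the results below was not tested. The RNA of the signal recognition particle took 16.1% and 14.8% of the reads in KO clones 66 and 69 with 4-OHT, 9.72% and 15.4% in WT clones 15 and 54 with 4-OHT, and 9.18% to 10.1% in the 4 libraries without 4-OHT. With this RNA left out of the totals, 21 members were called in the difference of responses described below, against 20 with it. Values are RPKM, reads per kilobase of the listed transcript scaled to the library total, then rescaled between libraries by trimmed-mean (TMM) factors. A gene is called where the adjusted p of limma over 16542 genes is under 0.05, and "rose", "fell", "higher" and "lower" of a count refer to calls.

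Over the 4 groups the usual order of the members was KO with 4-OHT at the top and KO without 4-OHT at the bottom, with the WT groups between them. Both KO libraries with 4-OHT lay above the other 6 libraries in 26 of 35 members, where 14.6% of all tested genes did so. Both KO libraries without 4-OHT lay below the other 6 in 21 of 35, against 16.5% of tested genes. Both statements held for 19 members, against 5.15% of tested genes: BRCA1, BRCA2, all 5 strand invasion genes, FANCA, FANCG, FANCM, UBE2T, FANCD2, FANCI, BLM, RECQL4, POLQ, EME1, CHEK1 and TOPBP1. Cell number and RNA per cell cannot be told apart in such bulk libraries, so a lower level may be fewer expressing cells or less message in each. A list of 20 proliferation genes, among them MKI67, E2F1 and the MCM helicase genes, showed the same order in its summed level, with 648 and 655 RPKM in KO with 4-OHT, 318 and 392 RPKM in WT with 4-OHT, 145 and 135 RPKM in KO without 4-OHT, and 253 and 351 RPKM in WT without 4-OHT. In that list 19 of 20 genes rose with 4-OHT in KO, against 28.7% of tested genes. Without 4-OHT 17 of 20 were lower in KO than in WT, against 3.74% of tested genes. The part of this shift in proliferation genes in the results below was not tested.

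**Figure D1:**
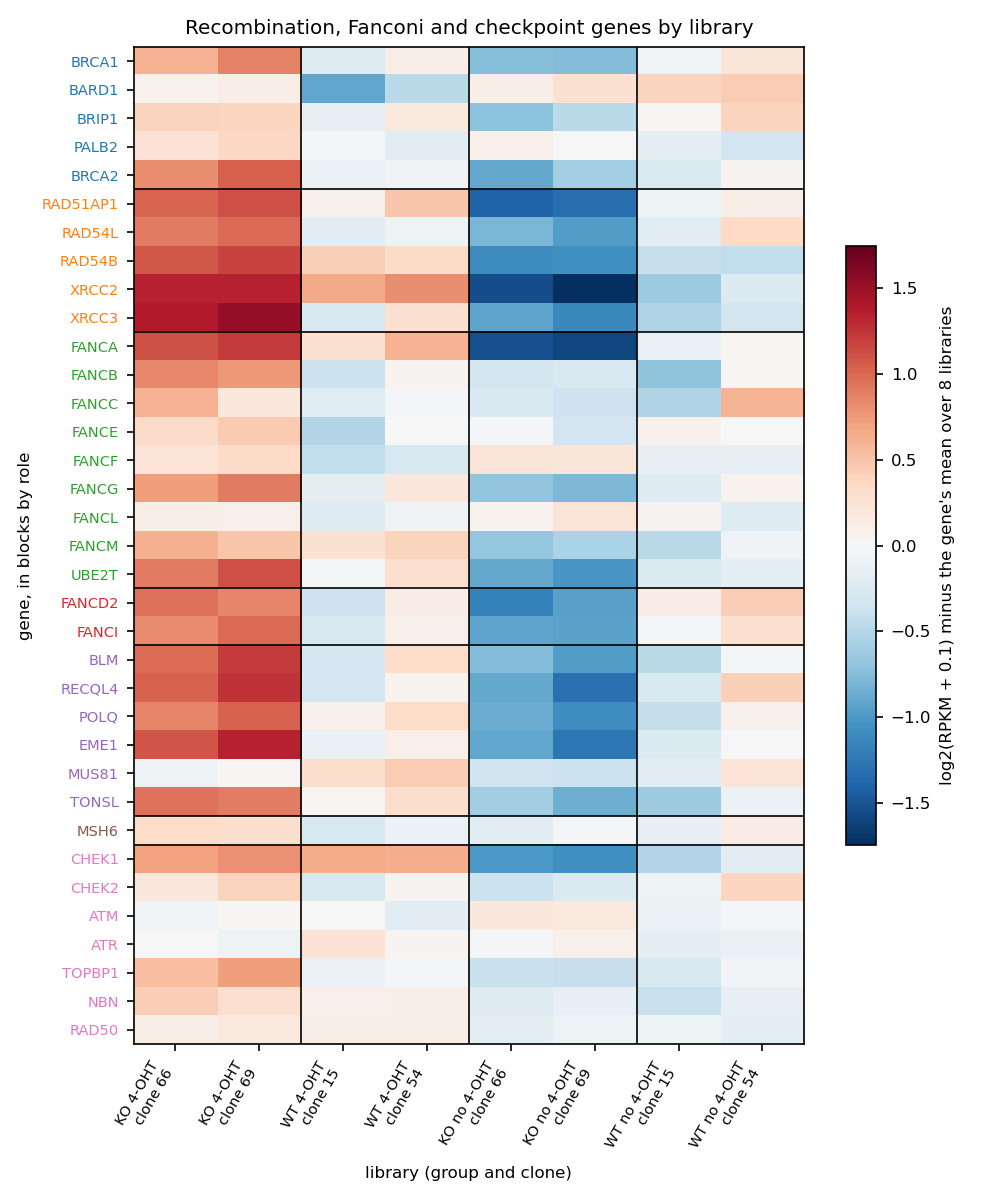
Heat map of the 35 members (rows, in blocks by role, name colours by role) over the 8 libraries (columns, by group and clone). Colour gives log2(RPKM + 0.1) minus the gene's mean over the 8 libraries, red above and blue below that mean. The 2 KO columns with 4-OHT are the reddest and the 2 KO columns without 4-OHT the bluest for most members, while ATM, ATR, RAD50, FANCL and MUS81 stay pale.

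The proximal promoters of 3 members are shown: FANCD2 and BRCA1, which follow this pattern, and ATM, which does not. All 3 were fixed examples. RECQL4, with the largest difference of responses described below, was also planned but had no RefSeq window. The windows run from 250 bases before to 50 bases after the RefSeq start (GRCh38.p14), in the direction of transcription. Capitals mark matches to an E2F-type motif (TTCCCGC and its variants TTCGCGC and TTGCCGC and TTGGCGC, either strand), to a cell-cycle homology region type (CHR, TTTGAA or TTCGAA, either strand) and to the CCAAT box (CCAAT, either strand).
FANCD2, chr3:10026187-10026486, plus strand: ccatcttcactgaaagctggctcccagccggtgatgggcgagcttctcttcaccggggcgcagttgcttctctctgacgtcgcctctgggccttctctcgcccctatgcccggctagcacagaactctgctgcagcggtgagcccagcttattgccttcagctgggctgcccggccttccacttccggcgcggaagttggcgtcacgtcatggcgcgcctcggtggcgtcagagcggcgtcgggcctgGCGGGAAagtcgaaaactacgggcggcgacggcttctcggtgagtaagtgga
BRCA1, chr17:43125315-43125614, minus strand: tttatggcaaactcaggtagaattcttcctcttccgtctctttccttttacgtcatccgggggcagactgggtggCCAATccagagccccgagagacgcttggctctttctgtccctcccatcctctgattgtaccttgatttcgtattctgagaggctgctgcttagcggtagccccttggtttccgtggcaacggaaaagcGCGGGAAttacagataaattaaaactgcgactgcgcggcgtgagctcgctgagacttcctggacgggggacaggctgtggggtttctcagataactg
ATM, chr11:108222817-108223116, plus strand: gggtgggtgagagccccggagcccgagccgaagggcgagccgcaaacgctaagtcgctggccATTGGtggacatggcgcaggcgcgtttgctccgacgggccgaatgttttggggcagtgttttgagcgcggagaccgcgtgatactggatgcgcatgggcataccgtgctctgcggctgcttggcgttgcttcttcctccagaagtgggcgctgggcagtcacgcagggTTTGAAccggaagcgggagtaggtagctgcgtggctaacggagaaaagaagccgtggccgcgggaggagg
The FANCD2 and BRCA1 windows each held 1 E2F-type match (GCGGGAA, the reverse complement of TTCCCGC). BRCA1 also held a CCAAT box, and ATM held a CHR-type match (TTTGAA) and a CCAAT box on the opposite strand (ATTGG). The RefSeq table held a window for 30 of the 35 members, and none for RECQL4, RAD54B, TONSL, NBN and FANCI. Of those without a window, RECQL4, RAD54B and FANCI were called in the difference of responses. An E2F-type match lay in 19 of these 30 windows (63.3%), against 13.0% of all 35116 windows of this length. It lay in 14 of 17 windows (82.4%) of members called in the difference of responses described below, and in 5 of 13 windows (38.5%) of the other members. The CHR-type match lay in 5 of 30 members' windows, 16.7% against 16.4% of all windows, and the CCAAT box in 16 of 30, 53.3% against 34.6%. A match describes letters only, and the windows compared were not matched in base content. For members 1 window each was used, the nearest to the listed transcript's start, while the 35116 windows were taken without such a choice. The part of these motifs in the results was not tested.

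The first question was how the KO clones responded to 4-OHT. Of the 35 members 26 rose and 0 fell, where 28.7% of all tested genes rose and 26.9% fell. The count of 0 was the same at an unadjusted p under 0.05 and by limma-voom. The median change was 2.8-fold (log2 1.49), against a median of 1-fold over all genes tested. By role, 5 of 5 strand invasion genes rose (median 5.35-fold), 2 of 2 ID complex subunits, 5 of 6 helicases, polymerase and nucleases (median 3.84-fold), 6 of 9 Fanconi core genes (median 2.12-fold), 3 of 5 genes of the BRCA complexes (median 1.96-fold), 4 of 7 checkpoint genes (median 1.45-fold) and MSH6 (1.34-fold). In 31 members both KO libraries with 4-OHT lay above both without it, as in 40.5% of tested genes, and in 2 members, BARD1 and ATM, below them, as in 40.2%. The 9 members not called were BARD1, PALB2, FANCC, FANCF, FANCL, MUS81, ATM, ATR and RAD50. The call of CHEK2 ended without any 1 of the 4 KO libraries (limma adjusted p = 0.0615 to 0.151). The call of FANCE ended without KO clone 66 with 4-OHT or KO clone 69 with or without it (adjusted p = 0.0755, 0.134 and 0.174). The call of MSH6 ended without KO clone 66 with 4-OHT or without it (0.0794 and 0.118) or KO clone 69 with 4-OHT (0.0738).

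The same question in the WT clones gave few calls. Of the 35 members 5 rose and 1 fell, against 25.2% and 23.7% of all tested genes, and the median change was 1.08-fold. Libraries with 4-OHT lay above those without it in 12 members (36.7% of tested genes) and below them in 3 (36.1%). The 5 that rose were XRCC2, CHEK1, RAD54B, FANCM and NBN, and the 1 that fell was BARD1. With no filter, with library size only or with only the 4 libraries compared 3 rose, and by limma-voom 9. Leaving out 1 library gave 3 to 7 members higher and 1 to 3 lower: without WT clone 15 without 4-OHT there were 3 higher and 2 lower, and without WT clone 54 with 4-OHT there were 3 lower. RAD54B lost its call without WT clone 15 with 4-OHT (adjusted p = 0.0533). FANCM and NBN lost theirs without WT clone 15 with 4-OHT, WT clone 54 with 4-OHT or WT clone 15 without it (FANCM 0.0846, 0.145 and 0.174, NBN 0.0753, 0.0818 and 0.0953). All 5 members that rose in WT also rose in KO, a pattern of 19.5% of tested genes, while 21 members rose in KO and were not called in WT, a pattern of 8.91% of tested genes. A further 8 were called in neither response, as were 33.7% of tested genes: ATM, ATR, RAD50, PALB2, FANCC, FANCF, FANCL and MUS81. Being called in KO and not in WT alone does not show that the responses differ, which the next comparison tested.

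The KO response less the WT response, here called the difference of responses, was higher in 20 of 35 members and lower in 0, where 4.36% of tested genes were higher and 3.08% lower. No member was lower at an unadjusted p under 0.05 or by limma-voom. The responses compared share no library. At the median member the change with 4-OHT was 2.18-fold larger in KO, against 0.995-fold over all genes tested. The 20 were 4 of 5 genes of the BRCA complexes, 5 of 5 strand invasion genes, 3 of 9 Fanconi core genes, 2 of 2 ID complex subunits, 4 of 6 helicases, polymerase and nucleases, and 2 of 7 checkpoint genes. Leaving out 1 library gave 7 to 25 called members. The count was 12 and 7 without KO clone 66 and 69 with 4-OHT, 10 without WT clone 15 with 4-OHT, and 11 and 8 without KO clone 66 and 69 without 4-OHT. With no filter on low values it was 11. The differences of RAD51AP1, XRCC3, FANCA, UBE2T, FANCD2, FANCI and EME1 were called in all 8 omissions.

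**Figure D2:**
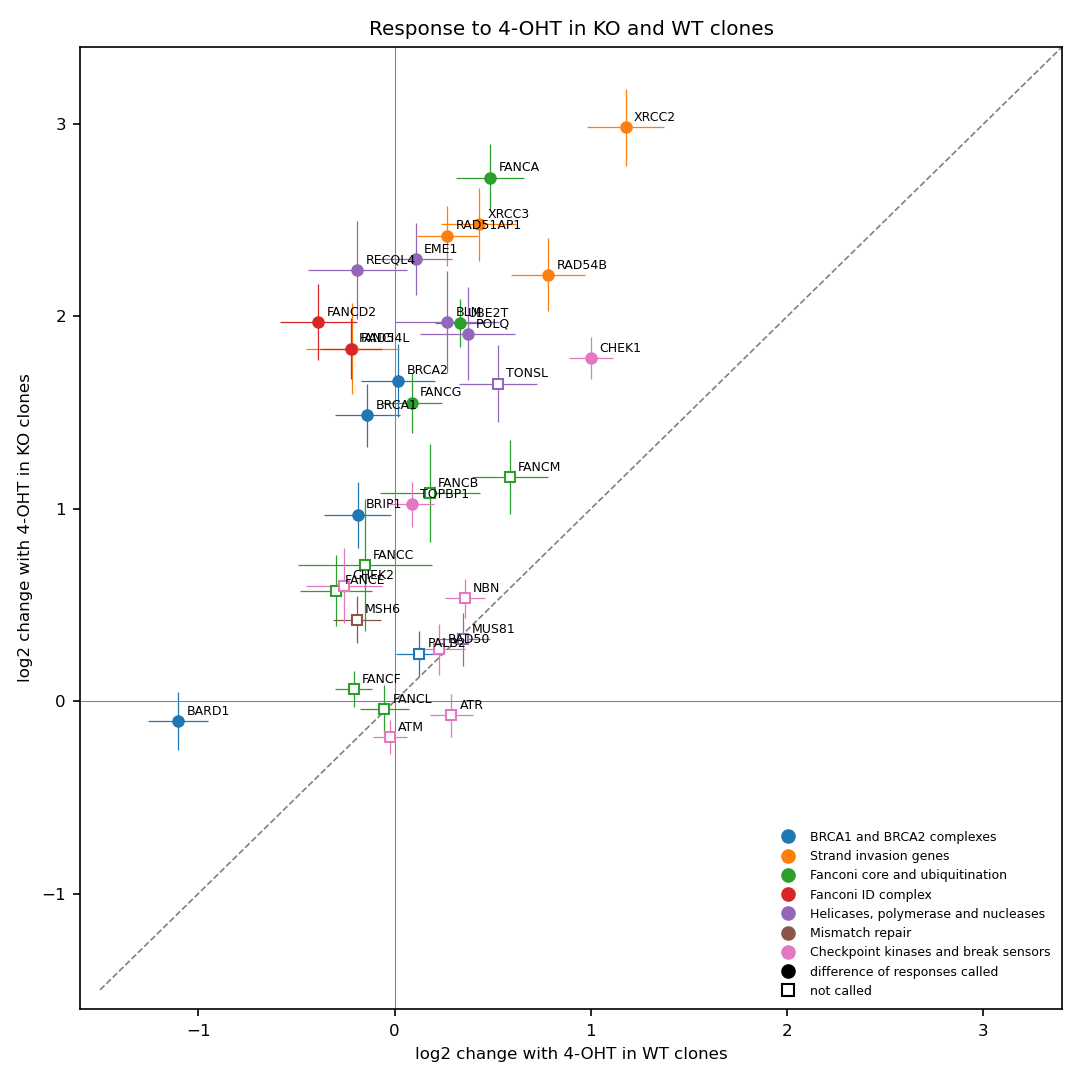
Scatter of the log2 change with 4-OHT in KO clones (vertical) against that in WT clones (horizontal) for the 35 members, coloured by role, with SE bars from limma. Filled points were called in the difference of responses and open squares were not, and the dashed line marks equal responses. Most members stand well above the line, with RECQL4 (2.24 in KO, −0.19 in WT) and FANCD2 (1.97 in KO, −0.39 in WT) farthest from it.

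Set against WT directly, KO clones held more of these messages with 4-OHT. Of the 35 members 20 were higher and 0 lower, where 6.71% of tested genes were higher and 7.65% lower, and the median was 1.65-fold. MUS81 was lower at an unadjusted p under 0.05, and 1 member was lower by limma-voom. This comparison uses the treated libraries of both responses above, so it is not independent of them. With no filter on low values 6 members were called higher. The count depended on single libraries: the count of members called higher was 6 without KO clone 66, 0 without KO clone 69, 2 without WT clone 15 and 15 without WT clone 54. In 31 of 35 members both KO libraries lay above both WT libraries, as in 30.1% of tested genes. The opposite order, which 31.2% of tested genes had, was seen in MUS81 and ATR.

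Without 4-OHT the order was the reverse. KO clones were lower than WT clones in 11 of 35 members and higher in 0, where 3.74% of tested genes were lower and 2.58% higher, and the median log2 difference was −0.59. At an unadjusted p under 0.05 there were 3 higher, and 1 by limma-voom. The 11 were BRCA1, BRIP1, RAD51AP1, XRCC2, FANCA, UBE2T, FANCD2, FANCI, RECQL4, EME1 and CHEK1. With no filter on low values 2 members were called lower, and in a fit of only the 4 libraries compared 1, where FANCD2 had adjusted p = 0.0544 and 0.0538. None of the 11 calls held in all omissions: the count was 0 without KO clone 66, 0 without KO clone 69, 15 without WT clone 15 and 3 without WT clone 54. Both KO libraries lay below both WT libraries in 24 of 35 members, as in 29.4% of tested genes, and above them in 5, as in 26.9%. Among the members 8 were called lower in KO without 4-OHT and higher with it, a pattern of 1.18% of tested genes: BRCA1, RAD51AP1, FANCA, UBE2T, FANCD2, FANCI, RECQL4 and EME1.

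**Figure D3:**
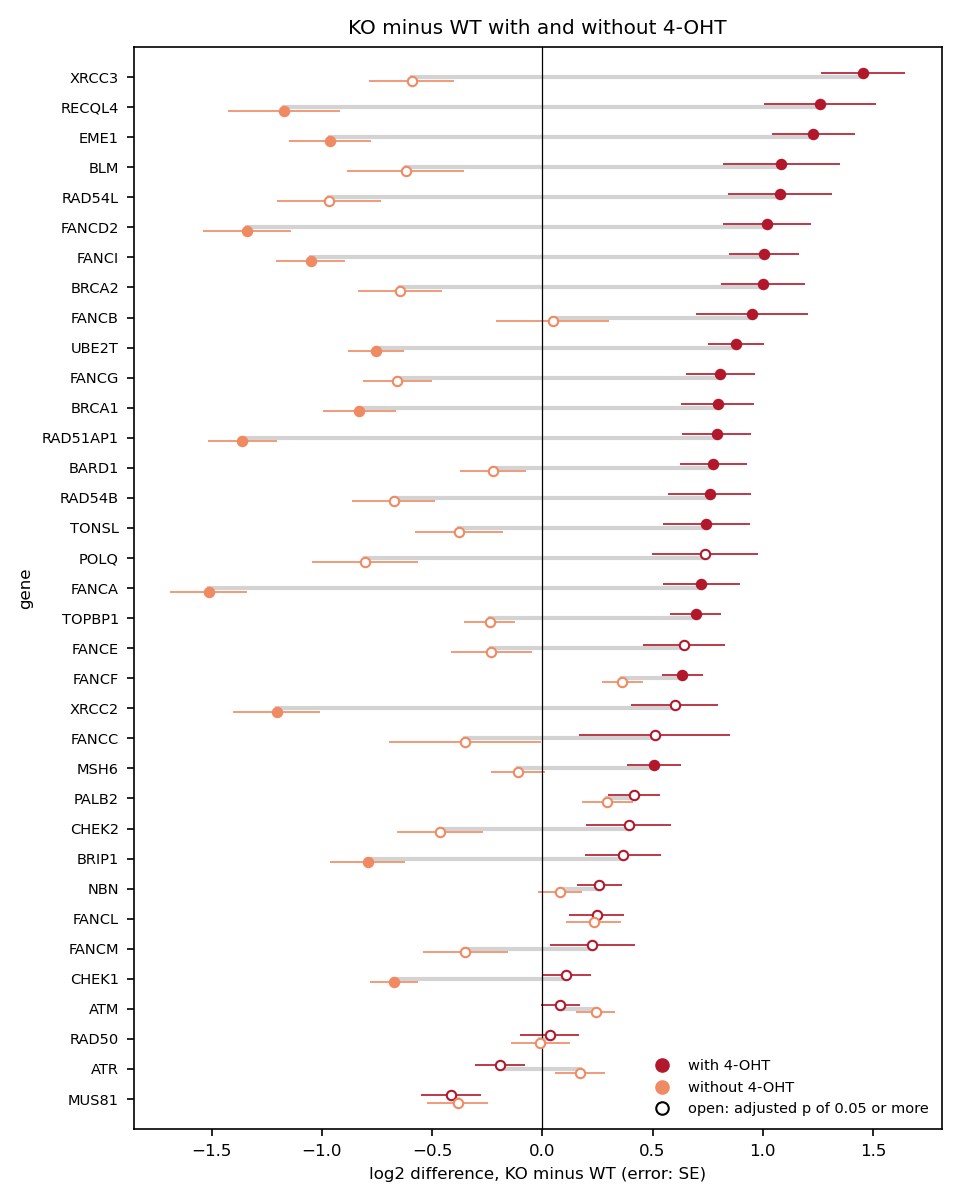
Log2 difference KO minus WT of each member (rows, sorted by the difference with 4-OHT), with 4-OHT in dark red and without 4-OHT in orange, SE bars from limma. Filled points have an adjusted p under 0.05. For most members the points lie on opposite sides of 0, from XRCC3 at the top (1.46 with 4-OHT, −0.59 without) to MUS81 at the bottom (−0.41 with, −0.38 without).

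Among the BRCA complexes, BRCA1 itself (ENSG00000012048.22), the ubiquitin ligase that channels breaks into recombination, measured 5.07 and 6.09 RPKM in KO clones 66 and 69 with 4-OHT and 2.82 and 3.55 RPKM in WT clones 15 and 54 with 4-OHT, against 1.93 and 1.91 RPKM in KO and 3.18 and 3.83 RPKM in WT without 4-OHT. No KO library overlapped a WT library, and the KO clones were the highest with 4-OHT and the lowest without it. The KO response was 2.8-fold (log2 1.49 ± 0.16 SE, limma adjusted p = 0.000224) and the WT response was log2 −0.14 ± 0.16 (adjusted p = 0.519). Their difference was 1.62 ± 0.23 (adjusted p = 0.00962), with adjusted p = 0.0528 and 0.0516 without KO clone 69 with and without 4-OHT. The KO minus WT difference was 0.79 with 4-OHT (adjusted p = 0.0226) and −0.83 without it (0.0322). With no filter on low values neither was called (limma adjusted p = 0.0684 and 0.0908), and neither call held in all omissions. Leaving out 1 library, the log2 difference ranged over 0.63 to 0.96 with 4-OHT and −0.96 to −0.70 without it. The gene lies at chromosome 17, 43044295 to 43170245 (GRCh38, minus strand), and shares exonic sequence on that strand with AC060780.1.

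BARD1, the obligate partner of BRCA1 in the ligase, went another way. It measured 4.75 and 4.93 RPKM in KO with 4-OHT and 2.39 and 3.25 RPKM in WT with 4-OHT, against 4.94 and 5.49 RPKM in KO and 5.97 and 6.23 RPKM in WT without it. Here the WT libraries with 4-OHT were the lowest of the 8. BARD1 fell 2.15-fold in WT (log2 −1.10 ± 0.15, adjusted p = 0.000841) and had log2 −0.10 ± 0.15 in KO (adjusted p = 0.592), and it was the only member called lower in either response. Its difference of responses, 1.00 ± 0.21 (adjusted p = 0.0355), thus came with a fall in WT and without a called change in KO. The difference was called in 2 of 8 omissions, with an adjusted p of up to 0.129 without KO clone 66 without 4-OHT. The fall in WT held in 4 of 4 omissions. With 4-OHT it was 1.71-fold higher in KO than in WT (adjusted p = 0.0185), lost without KO clone 66 (0.074) or 69 (0.112) or WT clone 15 (0.0769).

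BRCA2, the tumour suppressor that helps to build the filament, averaged 3.03 ± 0.36 RPKM in KO and 1.46 ± 0.04 RPKM in WT with 4-OHT, against 0.889 ± 0.144 RPKM in KO and 1.45 ± 0.23 RPKM in WT without it (SD, n = 2 clones). It rose 3.17-fold in KO, with log2 0.02 ± 0.19 in WT. Its difference of responses, 1.65 ± 0.27 (adjusted p = 0.015), was lost without KO clone 69 or WT clone 15 with 4-OHT (0.076 and 0.0607) or KO clone 66 without it (0.0635). BRIP1, a helicase that binds BRCA1, rose 1.96-fold in KO and had log2 −0.19 in WT. Its levels were 5.35 ± 0.03 and 4.16 ± 0.66 RPKM in KO and WT with 4-OHT, and 2.69 ± 0.34 and 4.76 ± 0.88 RPKM in KO and WT without it. Its difference of responses of 1.16 ± 0.24 (adjusted p = 0.0337) was called in 2 of 8 omissions, with adjusted p up to 0.119 without KO clone 66 without 4-OHT. PALB2, the bridge between BRCA1 and BRCA2, was not called in any of the 5 comparisons and ranged over 3.42 to 5.56 RPKM in the 8 libraries. Both KO libraries of PALB2 lay above both WT libraries with 4-OHT (log2 0.42, limma adjusted p = 0.05455) and without it (0.29, adjusted p = 0.169). Of these partners in recombination, BRCA1, BRCA2 and BRIP1 rose in KO, BARD1 fell in WT, and PALB2 was not called. No test compared the genes with each other.

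**Figure D4:**
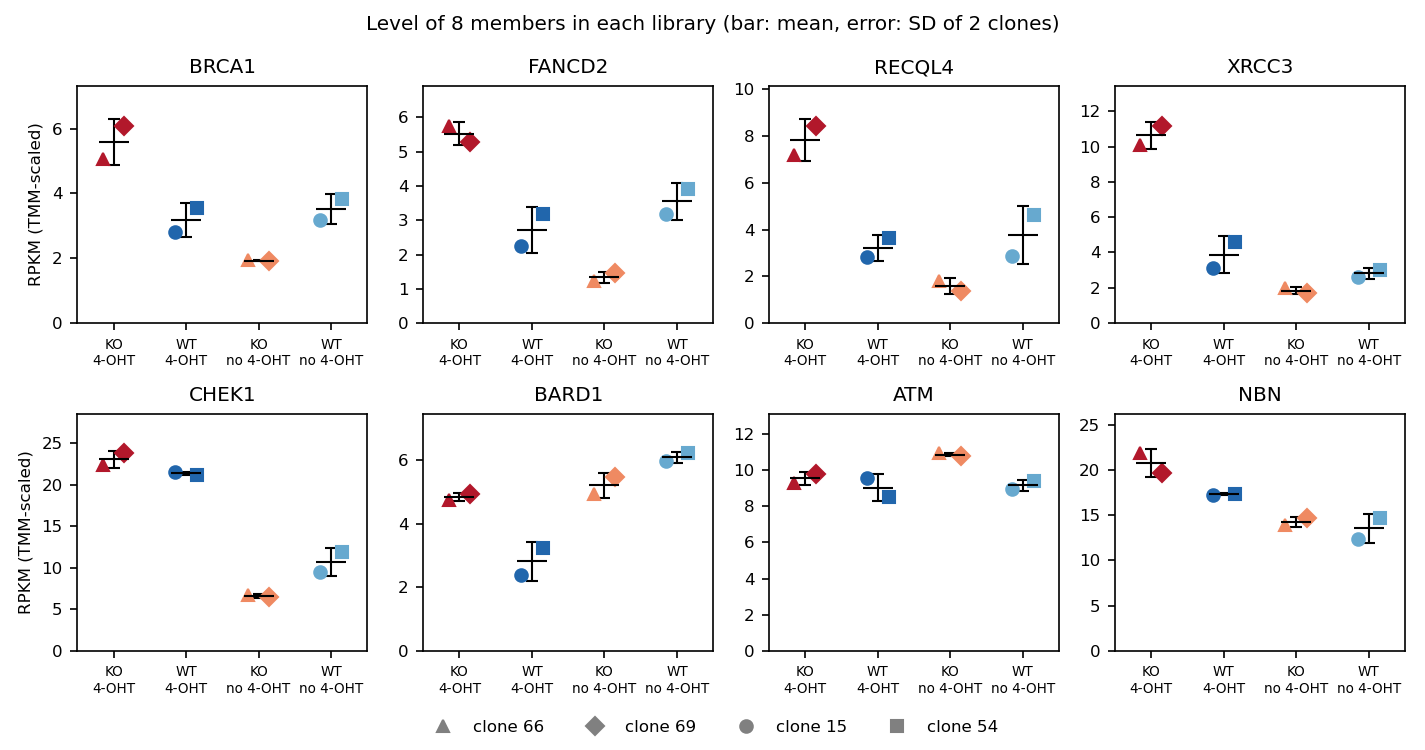
Level of 8 members in each library (RPKM, TMM-scaled, axes from 0), by group from KO with 4-OHT to WT without 4-OHT. Symbols mark the clone, the horizontal bar is the mean and the error bar the SD of 2 clones. BRCA1, FANCD2, RECQL4 and XRCC3 are highest in KO with 4-OHT, CHEK1 is high in both groups with 4-OHT, and BARD1 is lowest in WT with 4-OHT. ATM spans a narrow range, and NBN is higher with 4-OHT than without it in either genotype.

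The strand invasion genes had the highest median rise of the roles in KO. XRCC2 (ENSG00000196584.3), which helps to stabilise the filament, measured 3.19 and 3.20 RPKM in KO with 4-OHT and 1.97 and 2.18 RPKM in WT with 4-OHT, against 0.347 and 0.289 RPKM in KO and 0.739 and 1.00 RPKM in WT without it. The 4 libraries with 4-OHT all lay above the 4 without it. It rose 7.9-fold in KO (log2 2.98 ± 0.20, adjusted p = 2.35e-05), the largest change of any member, and 2.26-fold in WT (1.18 ± 0.20, adjusted p = 0.00221). The difference of 1.80 ± 0.28 (adjusted p = 0.0123) was called in 4 of 8 omissions and not without KO clone 66 (0.0511) or 69 (0.0653) with 4-OHT, WT clone 15 with 4-OHT (0.0553) or KO clone 69 without it (0.0579). Without 4-OHT it was 2.3-fold lower in KO (adjusted p = 0.0201), lost without KO clone 66 (0.0912), KO clone 69 (0.141) or WT clone 54 (0.069).

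XRCC3, a related protein of the same step, measured 10.1 and 11.2 RPKM in KO with 4-OHT and 3.15 and 4.62 RPKM in WT with 4-OHT, against 1.97 and 1.69 RPKM in KO and 2.60 and 3.02 RPKM in WT without it. KO with 4-OHT stood apart, more than any other member in that comparison: 2.74-fold above WT (log2 1.46 ± 0.19, adjusted p = 0.00726), a call that ended without KO clone 69 (0.0661). It rose 5.57-fold in KO (adjusted p = 4.53e-05) and had log2 0.43 ± 0.19 in WT (adjusted p = 0.102). Their difference was 2.05 ± 0.27 (adjusted p = 0.00788). Exons of XRCC3 are overlapped on the other strand by KLC1, and the strand setting of the counting is not given.

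RAD51AP1, which helps the filament pair with the sister strand, measured 7.41 and 7.99 RPKM in KO with 4-OHT and 3.82 and 5.08 RPKM in WT with 4-OHT, against 1.31 and 1.40 RPKM in KO and 3.42 and 3.88 RPKM in WT without it. The KO libraries again lay outside the WT range at both ends. It rose 5.35-fold in KO (log2 2.42 ± 0.16, adjusted p = 2.22e-05), and the difference of responses was 2.15 ± 0.22 (adjusted p = 0.00529). Without 4-OHT it was 2.57-fold lower in KO (−1.36 ± 0.16, adjusted p = 0.0089), with 0.0736 and 0.0723 without KO clone 66 and 69.

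RAD54B, a translocase related to RAD54L that acts during strand invasion, had low levels of 1.52 and 1.63 RPKM in KO with 4-OHT and 0.918 and 0.859 RPKM in WT with 4-OHT, against 0.256 and 0.264 RPKM in KO and 0.478 and 0.470 RPKM in WT without it. In reads these were 103 and 118, 71 and 58, 19 and 20, and 35 and 33, in the same order. The groups did not overlap, and clones of a group differed little. It rose 4.65-fold in KO (log2 2.22 ± 0.19, adjusted p = 6.77e-05) and 1.72-fold in WT (0.78 ± 0.19, adjusted p = 0.0112). The difference of 1.43 ± 0.27 (adjusted p = 0.0233) was called in 2 of 8 omissions, those of the WT libraries without 4-OHT. RAD54L, the RAD54 translocase, rose 3.56-fold in KO and had log2 −0.21 ± 0.24 in WT, over 20 to 92 reads per library. Its difference of 2.05 ± 0.33 (adjusted p = 0.0149) was called in 3 of 8 omissions, with adjusted p up to 0.0729 without KO clone 69 without 4-OHT. RAD54B shares exonic sequence on its strand with FSBP, and exons of RAD54L are overlapped on the other strand by LRRC41.

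In the Fanconi core, FANCA (ENSG00000187741.15), a scaffold subunit, measured 3.54 and 3.82 RPKM in KO with 4-OHT and 1.94 and 2.48 RPKM in WT with 4-OHT, against 0.486 and 0.461 RPKM in KO and 1.45 and 1.63 RPKM in WT without it. KO without 4-OHT stood farthest below WT among the members: 2.85-fold lower (log2 −1.51 ± 0.17, adjusted p = 0.0089), though with adjusted p = 0.0709 and 0.0751 without KO clone 66 and 69. It rose 6.59-fold in KO (2.72 ± 0.17, adjusted p = 2.18e-05). The WT response of 1.40-fold had groups that did not overlap and an adjusted p of 0.0516. The difference was 2.23 ± 0.25 (adjusted p = 0.00547). Exons of FANCA are overlapped on the other strand by ZNF276.

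The other core subunits moved less and not alike. FANCG rose 2.93-fold in KO, to 9.20 ± 0.83 RPKM with 4-OHT against 3.07 ± 0.16 RPKM without it. Its difference of responses was 1.47 ± 0.22 (adjusted p = 0.0112), with 0.06 and 0.0596 without KO clone 69 with and without 4-OHT. FANCB rose 2.12-fold and FANCE 1.49-fold in KO, and neither had a called difference of responses (adjusted p = 0.174 and 0.0907). FANCF was 1.55-fold higher in KO than in WT with 4-OHT (8.20 ± 0.40 against 5.24 ± 0.41 RPKM, adjusted p = 0.00898), through no called response in either genotype. That call ended without KO clone 69 (0.0748) or WT clone 15 (0.0586). FANCL, the ubiquitin ligase subunit, ranged over 5.15 to 7.08 RPKM in the 8 libraries and was not called anywhere. FANCC was not called either, on 18 to 39 reads per library and a listed transcript of 652 bases, so little can be seen at that depth.

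FANCM, the translocase that anchors the core complex at forks, rose 2.24-fold in KO and 1.5-fold in WT, and the difference of responses was not called (0.58 ± 0.27, adjusted p = 0.243). UBE2T, the ubiquitin-conjugating enzyme of the pathway, was among the most abundant members at 23.2 ± 2.4 RPKM in KO and 12.6 ± 1.9 RPKM in WT with 4-OHT, against 5.85 ± 0.36 RPKM in KO and 9.93 ± 0.44 RPKM in WT without it. It rose 3.91-fold in KO (adjusted p = 2.23e-05), with log2 0.33 ± 0.13 in WT (adjusted p = 0.0628). The conjugating enzyme and its substrates, described next, rose in KO, while the message of the ligase FANCL was not called. These genes were not tested against each other. Exons of FANCL are overlapped on the other strand by AC007250.1 and VRK2.

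The ID complex is the ubiquitinated substrate of the core. FANCD2 (ENSG00000144554.10) measured 5.77 and 5.29 RPKM in KO with 4-OHT and 2.24 and 3.19 RPKM in WT with 4-OHT, against 1.23 and 1.45 RPKM in KO and 3.18 and 3.92 RPKM in WT without it. The KO libraries lay at both ends, and WT clone 54 with 4-OHT overlapped WT clone 15 without it. It rose 3.92-fold in KO (log2 1.97 ± 0.20, adjusted p = 0.000144) and had −0.39 ± 0.20 in WT (adjusted p = 0.144). The difference of 2.36 ± 0.28 (adjusted p = 0.0062) was called in 8 of 8 omissions. KO exceeded WT by 2.03-fold with 4-OHT (adjusted p = 0.0185) and was 2.53-fold lower without it (0.0146). Either call ended without KO clone 66 (0.0889 with 4-OHT and 0.107 without) or KO clone 69 (0.0974 and 0.0917), the first also without WT clone 15 (0.0908) and the other without WT clone 54 (0.0571).

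FANCI, the other subunit, moved with it: 9.67 ± 0.81 RPKM in KO and 4.80 ± 0.89 RPKM in WT with 4-OHT, against 2.64 ± 0.02 RPKM in KO and 5.61 ± 0.84 RPKM in WT without it. Its KO response was 3.56-fold, and its difference of responses was 2.06 ± 0.22 (adjusted p = 0.00547). FANCD2 lies at chromosome 3, 10026414 to 10101930 (GRCh38, plus strand). Its exons are overlapped on the other strand by FANCD2OS, and those of FANCI by POLG.

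RECQL4, a RecQ helicase active at replication origins and in end resection, had the largest difference of responses. It measured 7.18 and 8.45 RPKM in KO with 4-OHT and 2.82 and 3.62 RPKM in WT with 4-OHT, against 1.82 and 1.35 RPKM in KO and 2.88 and 4.64 RPKM in WT without it. The WT groups overlapped, and the KO libraries lay outside them. It rose 4.73-fold in KO (log2 2.24 ± 0.25, adjusted p = 0.000253) and had −0.19 ± 0.25 in WT (adjusted p = 0.569). The difference was 2.43 ± 0.36 (adjusted p = 0.0106), with 0.0581 and 0.0523 without KO clone 69 with and without 4-OHT. With 4-OHT KO was 2.4-fold above WT (adjusted p = 0.0207), a call lost without KO clone 66 (0.0686), KO clone 69 (0.131) or WT clone 15 (0.116).

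EME1, the partner of the nuclease MUS81, measured 4.22 and 4.99 RPKM in KO with 4-OHT and 1.77 and 2.04 RPKM in WT with 4-OHT, against 0.974 and 0.745 RPKM in KO and 1.62 and 1.91 RPKM in WT without it. The WT groups overlapped and the KO groups lay apart on either side. It rose 4.92-fold in KO (log2 2.30 ± 0.19, adjusted p = 5.57e-05), with 0.11 ± 0.19 in WT, and the difference was 2.19 ± 0.26 (adjusted p = 0.00635). With 4-OHT KO exceeded WT by 2.34-fold (adjusted p = 0.00974), lost without KO clone 69 (0.082) or WT clone 15 (0.0648). MUS81 itself, the catalytic subunit, was not called in any of the 5 comparisons. Its levels were 11.7 ± 0.6 RPKM in KO and 15.7 ± 1.1 RPKM in WT with 4-OHT, against 9.36 ± 0.17 RPKM in KO and 12.4 ± 2.5 RPKM in WT without it. Its libraries with 4-OHT lay above those without it in KO (log2 0.32, limma adjusted p = 0.0825) and in WT (0.35, adjusted p = 0.0695). The 2 subunits of this nuclease were not tested against each other. Exons of MUS81 are overlapped on the other strand by CFL1 and EFEMP2, and those of EME1 by LRRC59.

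BLM, the helicase that resolves joined DNA molecules, rose 3.92-fold in KO, with log2 0.27 ± 0.27 in WT. POLQ, the polymerase of microhomology-mediated end joining, rose 3.76-fold in KO, with 0.37 ± 0.24 in WT. Their differences of responses were 1.70 ± 0.38 and 1.54 ± 0.34 (adjusted p = 0.0396 and 0.0395). These were among the least stable calls, held in 2 and 1 of 8 omissions, with adjusted p up to 0.144 and 0.143 without KO clone 69 with 4-OHT. TONSL, which reads newly made chromatin at damaged forks, rose 3.14-fold in KO, and its difference of responses missed the threshold (1.12 ± 0.28, adjusted p = 0.0579). MSH6, which recognises mismatches, rose 1.34-fold in KO and was 1.42-fold higher in KO than in WT with 4-OHT (10.4 ± 0.1 against 7.34 ± 0.64 RPKM, adjusted p = 0.0352). The second call ended without any 1 of the 4 libraries (0.0623 to 0.173).

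Among the checkpoint genes, CHEK1, the effector kinase of ATR, rose in both genotypes. It measured 22.3 and 23.8 RPKM in KO with 4-OHT and 21.5 and 21.2 RPKM in WT with 4-OHT, against 6.78 and 6.46 RPKM in KO and 9.51 and 11.8 RPKM in WT without it. The genotypes were close with 4-OHT (log2 difference 0.11, 95% interval −0.15 to 0.37, adjusted p = 0.549) and apart without it, where KO was 1.59-fold lower (adjusted p = 0.02). That call ended without KO clone 66 (0.109) or 69 (0.146). CHEK1 rose 3.45-fold in KO (1.78 ± 0.11, adjusted p = 1.9e-05) and 2-fold in WT (1.00 ± 0.11, adjusted p = 0.00031). The difference of 0.78 ± 0.16 (adjusted p = 0.0282) was called only in the omissions of the WT libraries without 4-OHT. CHEK1 shares exonic sequence on its strand with STT3A.

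CHEK2, the effector kinase of ATM, was called in the KO response alone (1.52-fold), a call lost without any 1 of the 4 KO libraries, as given above. TOPBP1, the activator of ATR, averaged 9.91 ± 1.01 RPKM in KO and 6.06 ± 0.21 RPKM in WT with 4-OHT, against 4.82 ± 0.02 RPKM in KO and 5.72 ± 0.66 RPKM in WT without it. It rose 2.03-fold in KO, and its difference of responses was 0.94 ± 0.16 (adjusted p = 0.0191). That call held in 4 of 8 omissions, and ended without KO clone 69 with 4-OHT (0.0809) or without it (0.0844), WT clone 15 with 4-OHT (0.0724) or KO clone 66 without it (0.077). NBN, the sensor subunit of the MRN complex, measured 21.9 and 19.7 RPKM in KO with 4-OHT and 17.3 and 17.4 RPKM in WT with 4-OHT, against 13.9 and 14.7 RPKM in KO and 12.4 and 14.7 RPKM in WT without it. Libraries with 4-OHT lay above those without it in either genotype. NBN rose 1.45-fold in KO (adjusted p = 0.00314) and 1.28-fold in WT (adjusted p = 0.0222), with a difference of 0.18 ± 0.14 (adjusted p = 0.486). RAD50, its partner in MRN, was not called and ranged over 1.74 to 2.23 RPKM. RAD50 shares exonic sequence on its strand with AC116366.3, and its exons are overlapped on the other strand by TH2LCRR.

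The 2 apical kinases were not called in any comparison. ATM (ENSG00000149311.18), which responds to breaks, measured 9.28 and 9.79 RPKM in KO with 4-OHT and 9.56 and 8.49 RPKM in WT with 4-OHT, against 10.9 and 10.8 RPKM in KO and 8.95 and 9.37 RPKM in WT without it, from 2452 to 3499 reads. The WT groups overlapped with and without 4-OHT, and KO without 4-OHT was the highest group. The KO response was log2 −0.19 with a 95% interval of −0.39 to 0.02, and the difference of responses was −0.16 with an interval of −0.46 to 0.13. A rise of the size seen for BRCA1 lies outside both intervals. ATR, which responds to stalled forks, ranged over 4.64 to 6.26 RPKM, with a difference of responses of −0.36 ± 0.16 (adjusted p = 0.206). In all, 7 members were not called in any of the 5 comparisons, ATM, ATR, RAD50, PALB2, FANCC, FANCL and MUS81, where 32.0% of tested genes were not called.

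Further genes of the same pathways were listed by textbook role, and their counts stand beside those of all tested genes, of which 28.7% rose and 26.9% fell in KO, 25.2% rose and 23.7% fell in WT, and 4.36% were higher in the difference of responses. Among 30 other recombination genes tested, 19 rose and 2 fell in KO, 11 rose and 3 fell in WT, and 8 had a called difference of responses, all higher in KO (median 1.51-fold over the 30). EXO1, a resection nuclease, differed by 1.79 ± 0.25, and RPA1, the large subunit of the single-strand binding protein, by 1.10 ± 0.15 (adjusted p = 0.00961 and 0.00823).

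Among 17 other Fanconi pathway genes tested, 9 rose and 4 fell in KO, 4 rose and 4 fell in WT, and 5 were higher in the difference of responses. UHRF1, which binds crosslinks and hemimethylated DNA, differed by 2.02 ± 0.32, and USP1, the enzyme that removes ubiquitin from FANCD2, by 1.09 ± 0.23 (adjusted p = 0.0131 and 0.0331). Among 21 other checkpoint genes, 11 rose and 5 fell in KO, 6 rose and 5 fell in WT, and 7 were higher in the difference. The shares of these checkpoint genes that rose and fell in WT, and that fell in KO, lay near those of all genes. Claspin (CLSPN), the adaptor that brings CHEK1 to ATR, differed by 2.11 ± 0.27 (adjusted p = 0.00709). The CDK1 inhibitory kinase WEE1 fell in both genotypes, by log2 −1.21 ± 0.12 in KO (adjusted p = 0.000122) and −1.48 ± 0.12 in WT (adjusted p = 7.45e-05), and its difference of responses was not called (0.27 ± 0.17, adjusted p = 0.363).

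Other repair pathways were counted in the difference of responses too, with no test between lists. Of 6 other mismatch repair genes 2 were higher, of 11 end joining genes 1 was higher, and of 29 base and nucleotide excision genes 7 were higher and 2 lower. Of the 20 proliferation genes 19 were higher, with a median of 3.85-fold, above the members' median of 2.18-fold. The lists stand beside all genes tested, of which 4.36% were higher, in the plot of the difference by list.

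**Figure D5:**
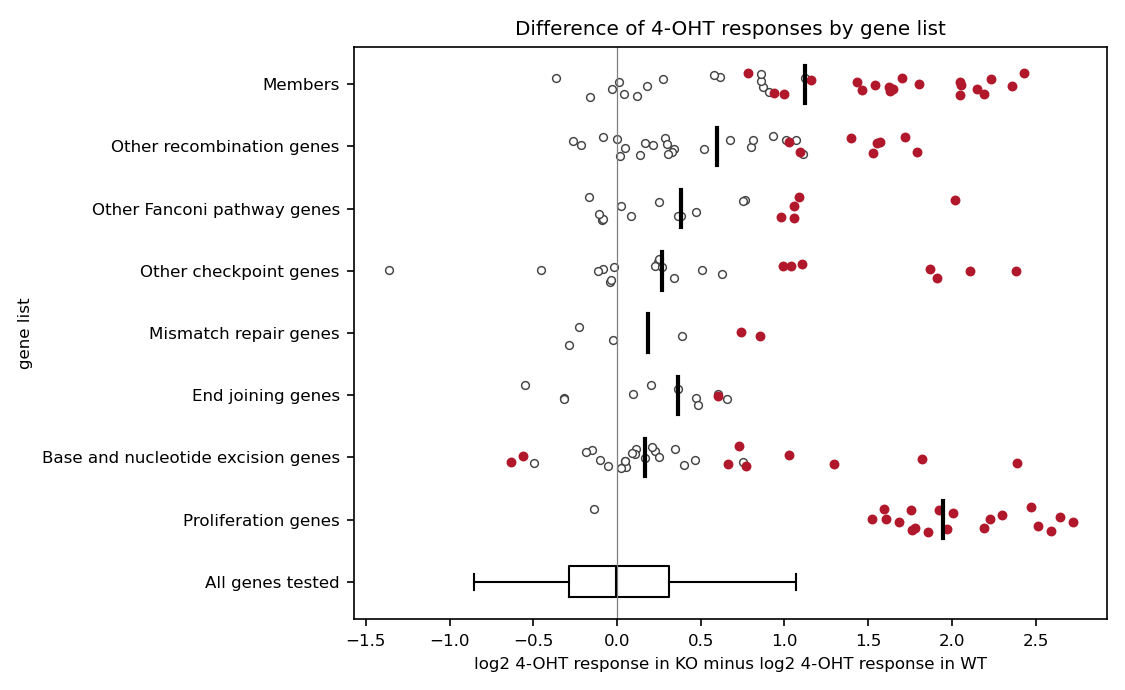
Difference of 4-OHT responses (log2, KO response minus WT response) for each gene of the members and of 7 other lists (rows). Red points have a limma adjusted p under 0.05, open points do not, vertical bars are list medians, and the box gives the quartiles of all 16542 genes tested with whiskers at the 5th and 95th percentiles. The members' median of 1.12 lies between that of the other recombination genes (0.60) and that of the proliferation genes (1.95).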

How the data were processed

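Per the labels' protocols, column-purified, DNase-treated RNA was made into stranded total RNA libraries. The submitters' processing notes name STAR, featureCounts, edgeR and GRCh38. Their versions, settings and strand setting, not given in the sources used here, could not be checked. The deposited table holds RPKM values made by the authors, 1 column per library. Column names are clone numbers, some followed by a minus, per the file headers. The minus was taken to mean no 4-OHT, though no label says so in words.

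With transcript lengths from GENCODE 29, 100% of values above 0 came out as whole reads within 0.1 read. Lengths of 6676 rows, 10 members among them, were inferred from the steps between their values, which gave the same reads in 99.2% of 500 test rows. The 45 pseudoautosomal Y rows were left out, and 1 read in 1 kb was worth 0.0401 to 0.0453 RPKM. Limits from counts cover counting error only. Genes needed 10 reads at the median library size in 2 libraries and 15 in all.

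RPKM were divided by TMM factors (0.940 to 1.04). On log2(RPKM + 0.1), limma 3.58.1 (R 4.3.3) fitted 4 group means over 8 libraries with an intensity trend and robust moderation, leaving 4 residual degrees of freedom. Its two-sided tests were Benjamini-Hochberg adjusted over 16542 genes. Folds are on this scale, which understates low genes. Means ± SD cover 2 clones. The scripts were tested on simulated data.

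Each clone was sampled with and without 4-OHT, so clone numbers pair libraries. Deviations from group means correlated at r = 0.309 between the paired WT libraries and 0.005 between the KO ones. Alternatives were other pseudocounts, no filter, other scaling, limma-voom on recovered reads, only the libraries compared, the clone as a block, and leaving out each library.

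The members and gene lists were chosen with earlier results of these data known. All 35 members were named and counted by role. Values in every library were given for the 3 called members of largest rise and of largest fall per comparison with groups not overlapping, the 5 of largest difference of responses, BRCA1, FANCD2, CHEK1, ATM and NBN. From each other list up to 4 called genes by p could be named, of which some are given. Markers of other cell types were named after their values were seen. Exons of 4 members (BRCA1, RAD54B, CHEK1 and RAD50) are shared with another gene on the same strand, and those of 20 members are overlapped on the other strand, where reads could be lost or miscounted. Promoter windows are RefSeq's. Some genes are not reported here.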

Additional observations from a re-analysis of the deposited data

Results flagged for a closer look

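The response to 4-OHT differed between KO and WT clones, by the interaction test of limma, in 20 of 35 members. Of all tested genes 4.36% were called higher in this difference and 3.08% lower. Of the 20 calls 11 held in all alternatives other than leaving out a library. Many of the calls depended on single libraries, as given above. The log2 differences, KO response minus WT response, were 2.43 for RECQL4, 2.36 for FANCD2, 2.23 for FANCA, 2.19 for EME1, 2.15 for RAD51AP1, 2.06 for FANCI, and 2.05 for XRCC3 and for RAD54L. They were 1.80 for XRCC2, 1.70 for BLM, 1.65 for BRCA2, 1.63 for UBE2T, 1.62 for BRCA1, 1.54 for POLQ, 1.47 for FANCG and 1.43 for RAD54B. The smallest were 1.16 for BRIP1, 1.00 for BARD1, 0.94 for TOPBP1 and 0.78 for CHEK1. In all 20 the KO response was the more positive. Only BARD1 among them was called lower in WT, and XRCC2, RAD54B and CHEK1 were called higher in both genotypes. Groups of 2 clones were too small to look for outlying libraries.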

How the results depend on the processing

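With the clone as a replicate block, 27 members were called higher in the KO response, 7 in the WT response and 23 in the difference of responses (26, 5 and 20 without the block), and with a random block 20 and 12 in KO minus WT with and without 4-OHT, so no count moved by over 1.5 times. No called member changed sign in any alternative. Without a filter on low values, members called higher were 3 in the WT response, 6 in KO minus WT with 4-OHT and 11 in the difference, and 2 were lower in KO minus WT without 4-OHT. With library size only, 3 were higher and 2 lower in the WT response. With limma-voom, 9 were higher in the WT response, 1 was lower in KO minus WT with 4-OHT and 1 higher without it. With only the 4 libraries compared, 3 were higher in the WT response and 1 lower in KO minus WT without 4-OHT. The cause was not tested. Leaving out signal recognition particle RNA gave 26, 5, 22, 11 and 21 calls in the main direction of the KO and WT responses, KO minus WT with and without 4-OHT and the difference. Other scalings moved the median of all genes by under 0.1.

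Leaving out each library in turn, the members called higher ranged over 23 to 24 in the KO response, 3 to 7 in the WT response (lower 1 to 3), 0 to 15 in KO minus WT with 4-OHT and 7 to 25 in the difference, and those called lower without 4-OHT over 0 to 15. Of the called members' values in these omissions, 94 of 104, 17 of 24, 22 of 80, 14 of 44 and 101 of 160 kept their call in the KO and WT responses, KO minus WT with and without 4-OHT and the difference.

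Signs changed only where nothing was called. By scaling, log2 values were −0.0575 (library size only) and −0.00882 (without signal recognition particle RNA) for BRCA2 in WT, 0.00076 for RAD50 in KO minus WT without 4-OHT and −0.000628 for FANCL in the difference (median-of-ratios), and 0.0337 for MUS81 in the difference (without signal recognition particle RNA). By omission, the KO response of FANCL ranged over −0.12 to 0.0406. WT responses ranged over −0.30 to 0.0228 for BRCA1, −0.14 to 0.17 for BRCA2, −0.48 to 0.0486 for RAD54L, −0.18 to 0.54 for FANCB, −0.71 to 0.40 for FANCC, −0.0863 to 0.26 for FANCG, −0.19 to 0.085 for FANCL, −0.0394 to 0.57 for BLM, −0.53 to 0.15 for RECQL4, −0.00673 to 0.22 for EME1, −0.11 to 0.0605 for ATM and −0.0291 to 0.20 for TOPBP1. KO minus WT ranged over −0.0034 to 0.17 for ATM with 4-OHT, and without it over −0.31 to 0.41 for FANCB, −0.91 to 0.20 for FANCC, −0.25 to 0.0335 for MSH6, −0.0422 to 0.20 for NBN and −0.0584 to 0.0409 for RAD50. The difference ranged over −0.13 to 0.15 for FANCL, −0.24 to 0.18 for MUS81 and −0.00738 to 0.0919 for RAD50. With 2 clones a group, small changes such as those of PALB2 or NBN lie near the limit of these tests, and FANCC is limited by its reads.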
